A study of Saccharomyces cerevisiae with 8 samples.

Results

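The aminoacyl-tRNA synthetases of Saccharomyces cerevisiae were followed over 4 h of exposure to TFM. The set was fixed by gene symbol and held 34 of the 5449 genes measured. For grouping, 20 were taken as cytosolic, 4 of these as also mitochondrial, and 14 as mitochondrial alone. Further sites of the products were not examined. One of the cytosolic genes, ARC1, encodes a cofactor rather than an enzyme. All 34 symbols were found in the array's annotation, each with 1 probe set. The rule that names them uses no measured value, but the members were chosen with earlier results of these data known.

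Cells were of strain BY4741, a MATa haploid in which URA3, LEU2 and MET17 are deleted, grown at 30 °C to saturation in YPD, a rich medium with glucose. Controls (n = 2) were taken just before treatment, had 2% isopropanol alone and stand for time zero. Treated cultures received 0.05 mM TFM in 2% isopropanol for 1 h (n = 2), 2 h (n = 2) or 4 h (n = 1, with 2 technical arrays that were averaged). TFM, an abbreviation the labels do not spell out, commonly stands for a nitrophenol used against lampreys, which uncouples oxidative phosphorylation. Solvent-only cultures were sampled at time zero alone, so time and TFM cannot be told apart. The series asks how yeast respond to TFM over time.

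Each synthetase joins one amino acid to its tRNAs, and the charged tRNA then delivers that amino acid to the ribosome. The enzymes fall into class I and class II, which have unrelated catalytic folds. Yeast cytosol and mitochondria translate separately, and most amino acids have a nuclear gene for each compartment, while ALA1, GRS1, HTS1 and VAS1 each supply both. The mitochondrial enzymes serve the translation of a few proteins, nearly all subunits of the respiratory chain and ATP synthase. Uncharged tRNA activates the kinase Gcn2, which raises translation of the transcription factor Gcn4.

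Values are RMA-normalised log2 signals on a 1-colour array, so a difference of 1 is a 2-fold change. In bulk RNA, fewer transcripts per cell cannot be told from fewer cells holding them. The MATa genes STE2, MFA1, MFA2, BAR1 and STE6 read between 10.21 and 13.00, and URA3, LEU2 and MET17 between 3.51 and 6.17. Of the MATalpha genes, MF(ALPHA)1 and MF(ALPHA)2 read between 5.34 and 8.35, while STE3 read between 8.85 and 10.01; MF(ALPHA)1 fell by 2.10 at 4 h (adjusted p = 0.0199), and the part of this in the results was not tested. The root mean square SD over the 34 genes was 0.077 in controls, 0.17 at 1 h and 0.045 at 2 h, and 0.047 between the technical arrays at 4 h. Over all genes it was 0.16 in controls, 0.17 at 1 h and 0.085 at 2 h, and 0.056 between the technical arrays at 4 h. Controls and 1 h were thus close over all genes. At 1 h the replicates differed most for the 34 genes. Replicate 2 was below replicate 1 for 26 of the 34 genes, against 2937 of all 5449. Over 17 ribosomal RNA probe sets the median signal went from 9.76 (replicate 1) and 9.97 (replicate 2) at time zero to 10.5 and 11.8 after 1 h, 11.4 and 13.0 after 2 h, and 12.2 and 12.1 on the arrays of 4 h. The mean 3' minus 5' signal of 10 probe set pairs was 1.55 in control replicate 1 and between 1.25 and 1.36 on the other 7 arrays. The part of these measures in the results was not tested.

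**Figure D1:**
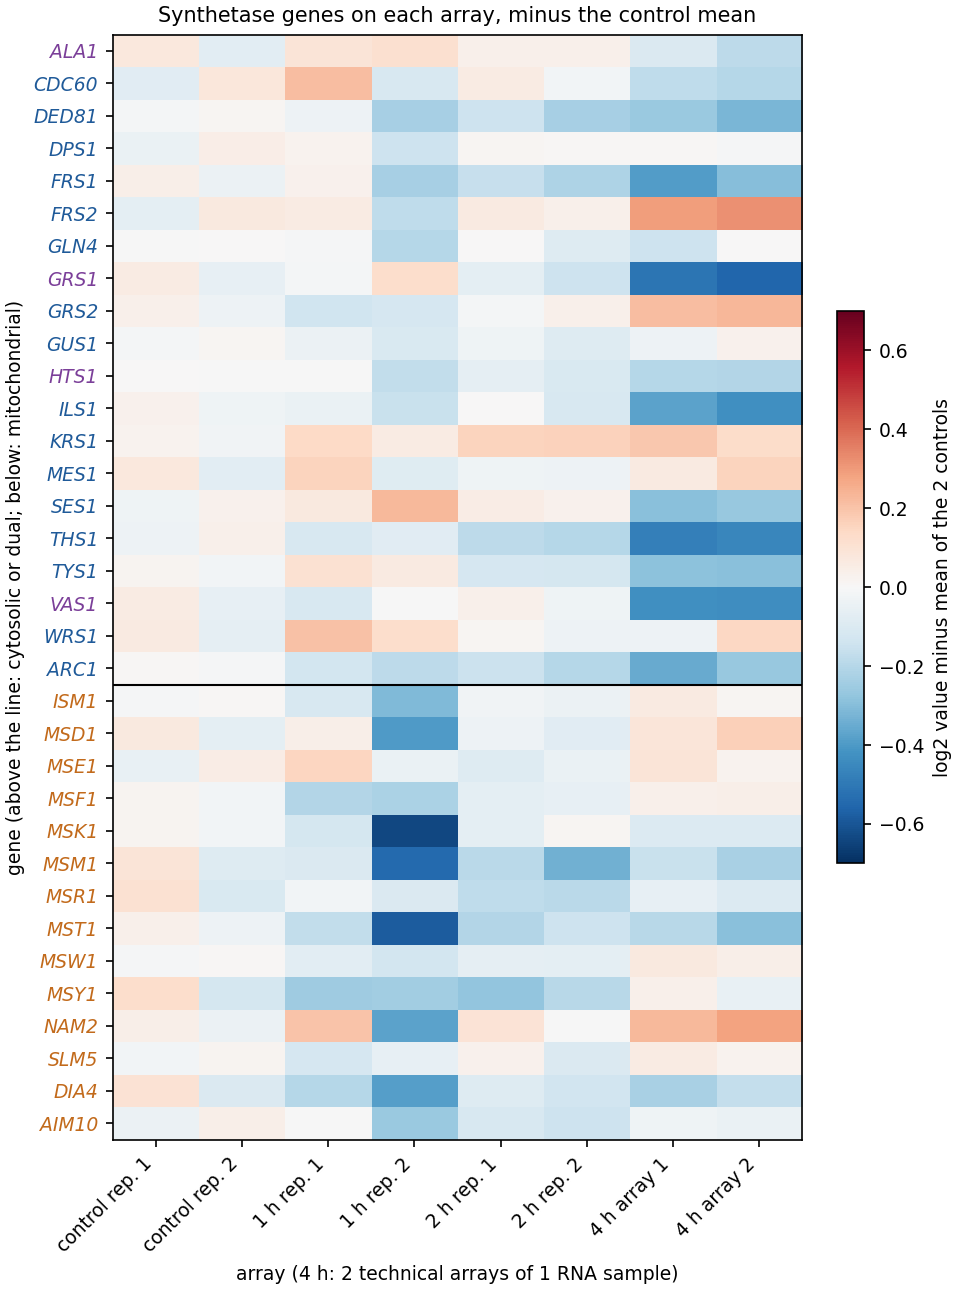
Log2 value of each synthetase gene (rows) on each array (columns) minus the mean of the 2 controls, as colour. Genes above the line act in the cytosol or in both compartments and those below it in the mitochondrion; 1 h replicate 2 is the lowest array for many mitochondrial genes, and the 4 h arrays are lowest for GRS1, THS1, VAS1 and ILS1.

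Few synthetase genes were called, and all of those that were had lower values at 4 h. The 4 h group is 1 RNA sample with no spread of its own, so these calls use the spread within the other 3 groups. Fitting the compared groups alone lost all of them (adjusted p from 0.108 to 0.249), and calls over all genes fell there too. In limma, fitted over all genes with Benjamini-Hochberg adjustment and a threshold of 0.05, GRS1 and THS1 fell by 4 h against time zero, and GRS1, THS1, SES1 and TYS1 fell between 1 h and 4 h. The 2 falls against time zero were 5.88% of the 34 genes, where 3.73% of all genes were lower and 0.734% higher. The 4 falls between 1 h and 4 h were 11.8% of the 34, beside 8.53% of all genes lower and 3.19% higher. Both shares rest on a handful of genes. None of the 34 rose in either comparison, but under some alternatives rises from 1 h to 4 h were called. GRS2 was called higher with a trended prior or over genes above the 25th percentile alone. FRS2, ISM1, MSD1, MSK1 and NAM2 were called higher without 1 h replicate 1, by 0.35 (ISM1) to 0.63 (NAM2). That fit leaves 1 sample on each side. The 1 h sample kept, replicate 2, was the lower one for all of these genes. Before adjustment 10 of 34 had a p under 0.05 at 4 h against time zero, all of them cytosolic or dual, against 19.8% of all genes, and 10 of 34 between 1 h and 4 h, against 33.4%.

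At 1 h 0 of 34 passed in limma, where 3.47% of all genes were higher and 1.52% lower; 4 of 34 had an unadjusted p under 0.05, against 27.5% of all genes. At 2 h 0 of 34 passed, where 0.0184% of all genes were higher and 0.0918% lower, and 1 of 34, THS1, had an unadjusted p under 0.05, against 12.3% of all genes. Between 1 h and 2 h 0 passed (background 0.128% higher and 2.51% lower), with TYS1 alone under 0.05 unadjusted, against 22.3% of all genes. Between 2 h and 4 h 0 passed (0.0918% higher and 0.771% lower), with 5 of 34 under 0.05 unadjusted, against 12.1% of all genes. In the F test over the 3 times 0 of 34 passed, where 6.51% of all genes did; 7 of 34, all cytosolic or dual, were under 0.05 unadjusted, against 30.8% of all genes.

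The intervals give the range of change that the spread between these samples allows. At 4 h, with 1 RNA sample, that spread comes from the other groups alone. In each of the 6 comparisons, the 95% interval of all 34 changes, not adjusted for the number of genes, lay within a 2-fold change in either direction. Within a 1.5-fold change lay 31 of 34 intervals at 1 h, 33 at 2 h and 25 at 4 h. The median absolute change was 0.10 at 1 h and 0.06 at 2 h, beside 0.15 and 0.10 over all genes, and 0.17 at 4 h, beside 0.15.

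GRS1, the essential glycyl-tRNA synthetase that serves both compartments, had the lowest change of the set at 4 h. It read 12.87 and 12.75 before treatment, 12.80 and 12.93 after 1 h, 12.74 and 12.66 after 2 h, and 12.30 and 12.25 after 4 h. Both 4 h arrays lay below every other sample, and the 2 h samples lay just below the controls. GRS1 fell by 0.54 at 4 h (SE 0.11, adjusted p = 0.0496), a level that fell by 31.0%, and by 0.59 from 1 h to 4 h (SE 0.11, adjusted p = 0.0260). The change was 0.06 at 1 h and -0.11 at 2 h.

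Its paralogue GRS2, which is dispensable for growth, had the opposite sign. GRS2 read 11.68 and 11.61 before treatment, 11.50 and 11.52 after 1 h, 11.63 and 11.68 after 2 h, and 11.86 and 11.88 after 4 h. The 1 h samples were the lowest and the 4 h arrays the highest, with no overlap with the controls. The change at 4 h was 0.23 (SE 0.09, adjusted p = 0.241), with a 95% interval of 0.01 to 0.44, and it was not called. From 1 h to 4 h the change was 0.35 (SE 0.09, adjusted p = 0.0549), also not called; the adjusted p was 0.0379 with a trended prior and 0.0370 over genes above the 25th percentile. The probe sets are separate, but the share of signal that each could take from the other transcript was not tested.

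THS1, the cytosolic threonyl-tRNA synthetase, read 13.10 and 13.17 before treatment, 13.02 and 13.06 after 1 h, 12.95 and 12.94 after 2 h, and 12.65 and 12.68 after 4 h. The 4 groups did not overlap, and each later time was lower than the one before. THS1 fell by 0.47 at 4 h (SE 0.09, adjusted p = 0.0447), or by 27.7%, and by 0.37 from 1 h to 4 h (SE 0.09, adjusted p = 0.0476). At 1 h and 2 h its changes were -0.10 and -0.19, and neither passed.

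SES1, the cytosolic seryl-tRNA synthetase, was highest at 1 h and lowest at 4 h. It read 12.96 and 13.02 before treatment, 13.06 and 13.22 after 1 h, 13.04 and 13.02 after 2 h, and 12.70 and 12.72 after 4 h. From 1 h to 4 h it fell by 0.43 (SE 0.10, adjusted p = 0.0496), while its change from time zero to 4 h was -0.28 (SE 0.10, adjusted p = 0.212). TYS1, the cytosolic tyrosyl-tRNA synthetase, followed the same order of times for its highest and lowest values. It read 11.89 and 11.84 before treatment, 11.97 and 11.93 after 1 h, 11.75 and 11.74 after 2 h, and 11.58 and 11.57 after 4 h. No 2 of its groups overlapped. It fell by 0.37 from 1 h to 4 h (SE 0.09, adjusted p = 0.0448), and its change from time zero to 4 h was -0.29 (SE 0.09, adjusted p = 0.139).

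Apart from that of GRS1 from 1 h to 4 h, these calls lay close to the threshold. Each was lost when some single sample was left out. Scaling removed both calls against time zero and, with median centring alone, that of SES1 from 1 h to 4 h. The calls of GRS1, THS1 and TYS1 from 1 h to 4 h held after median centring and after quantile normalisation. Those of GRS1 and THS1 at 4 h against time zero were lost without control replicate 1 (-0.48, adjusted p = 0.148, and -0.50, adjusted p = 0.104), without control replicate 2 (-0.59, adjusted p = 0.0972, and -0.43, adjusted p = 0.122) and without either 2 h replicate (adjusted p = 0.151 and 0.159), and after median centring or quantile normalisation of the arrays. Of the calls between 1 h and 4 h, that of GRS1 was lost without either 2 h replicate (adjusted p = 0.0763), and those of SES1, THS1 and TYS1 also without either control replicate (adjusted p = 0.0673, 0.0617 and 0.0613) and without 1 h replicate 2 (adjusted p = 0.0700, 0.0680 and 0.0511).

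**Figure D2:**
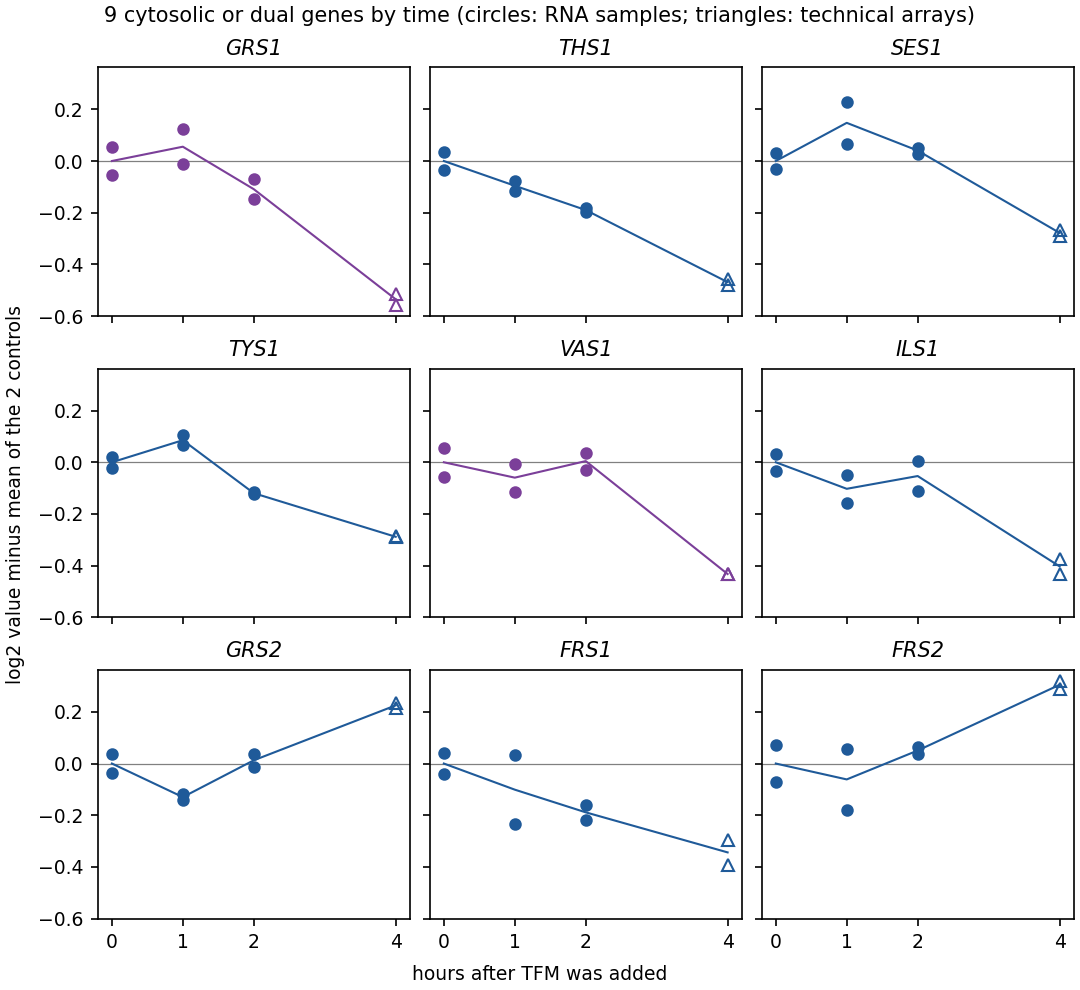
Log2 value minus the control mean (vertical axis) against hours in TFM (horizontal axis) for 9 genes; circles are RNA samples, open triangles the 2 technical arrays at 4 h, and lines join the means. GRS1, THS1, SES1, TYS1, VAS1, ILS1 and FRS1 are lowest at 4 h, whereas GRS2 and FRS2 are highest there.

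The other genes with a dual product had negative changes at 4 h that did not pass the test. VAS1, valyl-tRNA synthetase, read 12.00 and 11.88 before treatment, 11.83 and 11.94 after 1 h, 11.98 and 11.91 after 2 h, and 11.51 on both arrays after 4 h. Only the 4 h sample stood apart, at -0.43 (SE 0.10, adjusted p = 0.0823); with a trended prior, or over genes above the 25th percentile alone, the adjusted p was 0.0431 and 0.0432. HTS1, histidyl-tRNA synthetase, stood at -0.20 (adjusted p = 0.332) and ALA1, alanyl-tRNA synthetase, at -0.14 (adjusted p = 0.478), and neither passed. All 4 dual genes had a negative change at 4 h, with a median of -0.32, where 50.6% of all genes had one.

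ILS1, the cytosolic isoleucyl-tRNA synthetase, read 11.85 and 11.79 before treatment, 11.77 and 11.66 after 1 h, 11.83 and 11.71 after 2 h, and 11.45 and 11.39 after 4 h. The 4 h arrays lay below all other samples, and the change of -0.40 (SE 0.10) did not pass (adjusted p = 0.0983). DED81, for asparagine, stood at -0.29 (adjusted p = 0.227), CDC60, for leucine, at -0.19 (adjusted p = 0.538) and GLN4, for glutamine, at -0.07 (adjusted p = 0.772). DPS1, for aspartate, had an interval of -0.26 to 0.26 that was centred on no change. WRS1, for tryptophan, stood at 0.05. KRS1, for lysine, was above both controls in every treated sample: it read 11.34 and 11.29 before treatment, 11.46 and 11.37 after 1 h, 11.47 and 11.48 after 2 h, and 11.50 and 11.44 after 4 h. It was also the only one of the 34 genes whose 2 h samples lay above both controls, where 21.1% of all genes did, while those of 16 genes lay below both, where 31.5% did; its changes of 0.10, 0.16 and 0.16 did not pass (adjusted p = 0.422, 0.463 and 0.384).

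Some synthetases work as complexes of several chains, whose genes are described side by side. Cytosolic phenylalanyl-tRNA synthetase is a tetramer of the products of FRS1 and FRS2. FRS1 read 12.21 and 12.13 before treatment, 12.21 and 11.94 after 1 h, 12.01 and 11.96 after 2 h, and 11.78 and 11.88 after 4 h. FRS2 read 12.03 and 12.17 before treatment, 12.16 and 11.92 after 1 h, 12.17 and 12.14 after 2 h, and 12.39 and 12.42 after 4 h. At 4 h FRS1 thus lay below and FRS2 above all other samples, by -0.34 (SE 0.13, adjusted p = 0.213) and 0.30 (SE 0.13, adjusted p = 0.253) against time zero. Neither was called, and the difference between them was not tested.

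Arc1 binds the glutamyl and methionyl enzymes, the products of GUS1 and MES1, in one cytosolic complex and helps them take up tRNA. ARC1 read 12.47 and 12.45 before treatment, 12.33 and 12.28 after 1 h, 12.31 and 12.26 after 2 h, and 12.11 and 12.20 after 4 h. Every treated sample was below both controls, yet the changes of -0.16, -0.18 and -0.31 did not pass (adjusted p = 0.223, 0.406 and 0.127). GUS1 spanned only 0.12 over the 7 samples, and its interval at 4 h ran from -0.22 to 0.22. MES1 stood at 0.11 at 4 h (adjusted p = 0.675).

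**Figure D3:**
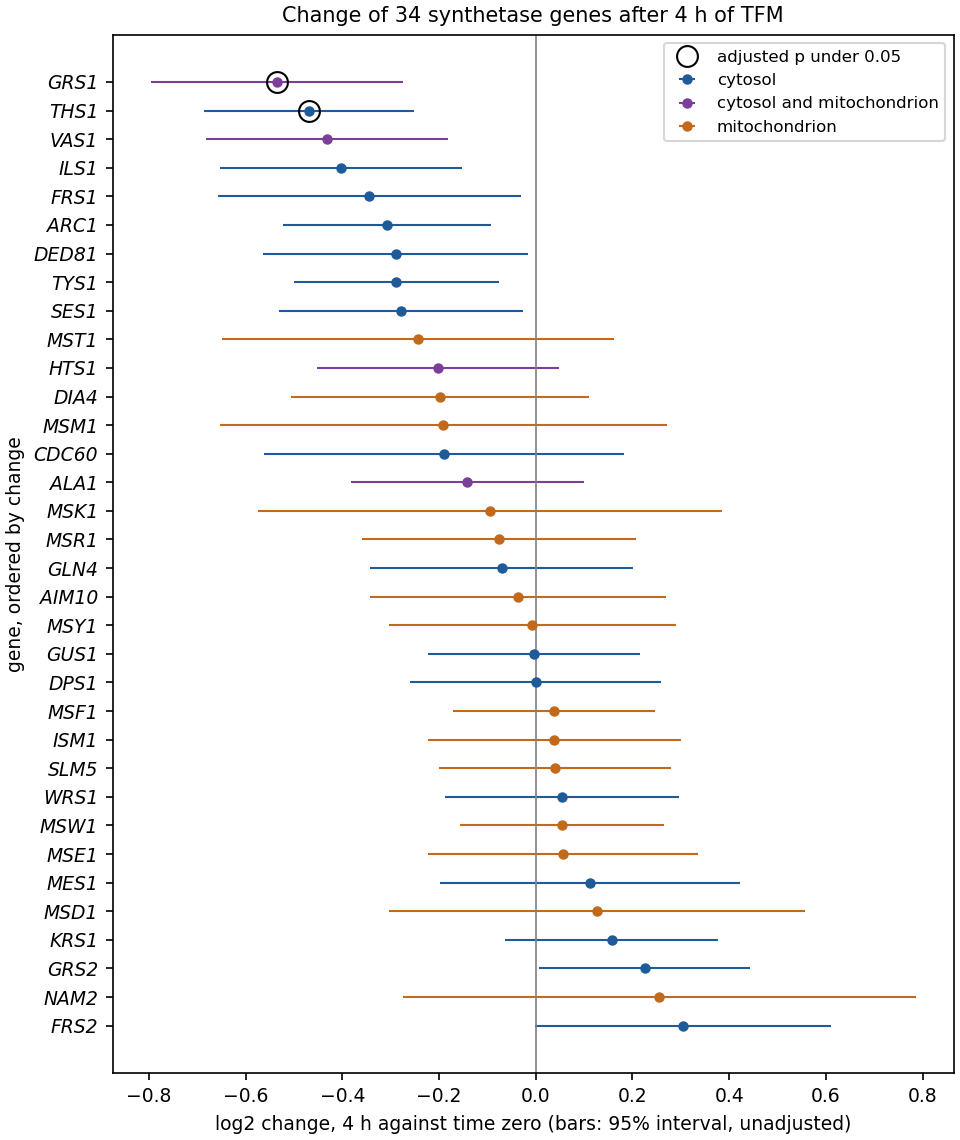
Log2 change of each gene at 4 h against time zero (horizontal axis) with its unadjusted 95% interval, ordered by change and coloured by compartment; circled genes, GRS1 and THS1, passed limma's adjusted threshold. The 9 lowest genes are cytosolic or dual, and every interval lies within a 2-fold change.

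The mitochondrial enzymes were described by their counts, since none passed in any comparison. At 1 h 13 of the 14 had a negative change and 1 a positive one, where 55.9% and 44.1% of all genes did, with a median of -0.19 beside -0.03 over all genes. After median centring of the arrays the median of the 14 was -0.14, and after quantile normalisation -0.15. Both 1 h samples lay below both controls for 9 of 14 and above both for 0, where 32.2% and 23.5% of all genes did so. The values of 1 h replicate 2 were lower still than those of replicate 1 for 12 of 14. Their median difference from the control mean was -0.28 in replicate 2 and -0.11 in replicate 1, against -0.03 and -0.02 over all genes.

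MSK1, the mitochondrial lysyl-tRNA synthetase, which also takes part in import of a cytosolic lysine tRNA, read 12.19 and 12.16 before treatment, 12.05 and 11.54 after 1 h, 12.10 and 12.19 after 2 h, and 12.08 on both arrays after 4 h. The low value was that of 1 h replicate 2, while the other treated samples lay near the controls. NAM2, the leucyl enzyme that also helps to splice mitochondrial introns, read 10.81 and 10.73 before treatment, 10.97 and 10.40 after 1 h, 10.87 and 10.77 after 2 h, and 11.03 as the mean of the arrays after 4 h. Its 1 h replicates lay on opposite sides of the controls. MST1, for threonine, stood at -0.38 at 1 h (adjusted p = 0.144), its values going from 9.84 and 9.77 to 9.63 in replicate 1 and 9.22 in replicate 2. Without 1 h replicate 1, which leaves 1 sample at 1 h, limma called 6 of 34 lower, all of them mitochondrial: ISM1, MSD1, MSK1, MSM1, MST1 and NAM2, by 0.31 to 0.64. Calls rose over the whole array in that fit, to 575 of 5449 genes lower and 430 higher, from 83 and 189 with both replicates. Without 1 h replicate 2 it called 0, and the mitochondrial median was -0.11.

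MSF1 and MSY1 were low in both 1 h samples alike. MSF1, the phenylalanyl enzyme, a single chain unlike its cytosolic counterpart, read 11.18 and 11.15 before treatment, 10.96 and 10.94 after 1 h, 11.09 and 11.11 after 2 h, and 11.20 on both arrays after 4 h. The 1 h samples were lowest and the 4 h sample lay just above the controls. Its change at 1 h was -0.21 (SE 0.07), with the lowest adjusted p of the 34 in that comparison, 0.124. MSY1, for tyrosine, read 10.79 and 10.55 before treatment, 10.42 and 10.43 after 1 h, 10.40 and 10.48 after 2 h, and 10.71 and 10.62 after 4 h. It lay below both controls at 1 h and 2 h and between them at 4 h, with changes of -0.25 and -0.24 (adjusted p = 0.176 and 0.419). DIA4, the probable seryl enzyme, stood at -0.29 at 1 h (adjusted p = 0.140).

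Values at 1 h for the remaining mitochondrial genes ran from below to just above the controls. MSM1, for methionine, stood at -0.32, ISM1, for isoleucine, at -0.21, and MSD1, for aspartate, at -0.18. AIM10, the predicted prolyl enzyme, stood at -0.13, MSW1, for tryptophan, at -0.10, SLM5, for asparagine, at -0.09, and MSR1, for arginine, at -0.06. MSE1, for glutamate, was the only one of the 14 with a positive change, 0.05. Their adjusted p at 1 h ran from 0.186 (ISM1) to 0.751 (MSE1). MSM1, MSR1, MST1 and DIA4 had a mean below the 25th percentile of all probe sets, so the other 30 of the 34 passed that filter; over all genes below it, the median at 1 h was higher than in the controls, by 0.09 in replicate 1 and 0.07 in replicate 2.

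By 2 h the mitochondrial median was -0.07, with 13 of 14 changes negative and 1 positive, where 56.2% and 43.8% of all genes were, and at 4 h it was 0.01 with 7 of 14 negative. The median of the cytosolic or dual genes was lowest at 4 h, with values of -0.06 at 1 h, -0.04 at 2 h and -0.20 at 4 h, where the median of all genes was near 0. After median centring of the arrays these medians were -0.002, -0.008 and -0.17, and after quantile normalisation -0.03, -0.03 and -0.19. At 4 h 15 of the 20 had a negative change and 5 a positive one, where 50.6% and 49.4% of all genes did, and the 4 h sample lay below both controls for 13 of 20, where 40.3% of all genes did, and above both for 4, where 38.4% did. For the 14 mitochondrial genes it lay below both for 4 and above both for 7. NAM2 stood highest of these at 4 h, at 0.26 (adjusted p = 0.561), and MSD1 next, at 0.13. Between 1 h and 2 h 12 of 14 mitochondrial and 9 of 20 cytosolic or dual genes had a positive change, where 53% of all genes had one and 47% a negative one. From 1 h to 4 h these counts were 13 of 14 (median 0.14) and 7 of 20 (median -0.15), where 52.8% of all genes had a positive and 47.2% a negative change. From 2 h to 4 h they were 11 of 14 (median 0.10) and 5 of 20 (median -0.13), where the shares of all genes were 55.7% and 44.3%. These comparisons share samples with each other and with those against time zero, and the difference between compartments was not tested.

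**Figure D4:**
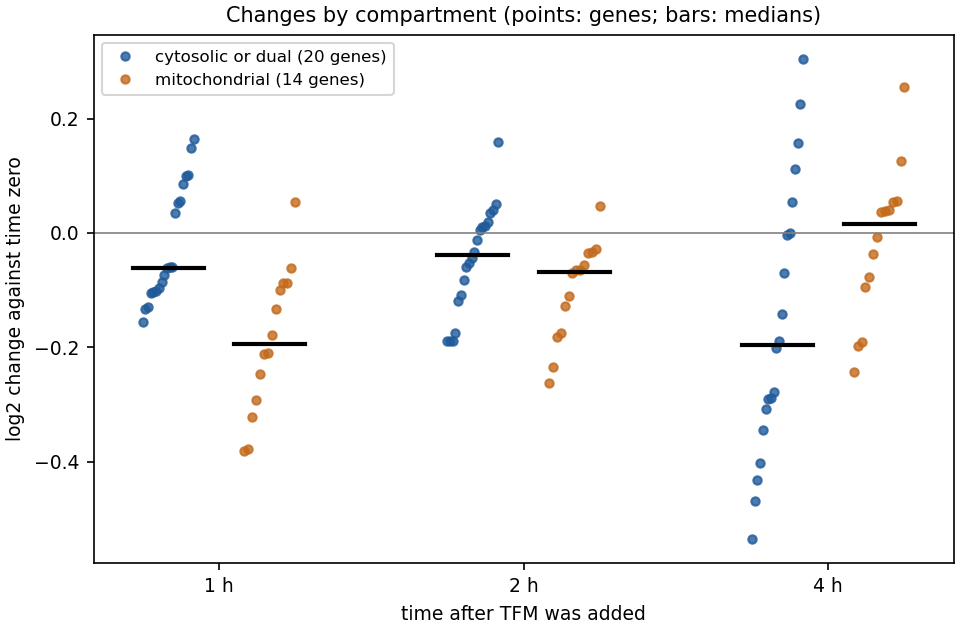
Log2 change against time zero (vertical axis) at 1, 2 and 4 h for the 20 cytosolic or dual genes and the 14 mitochondrial genes; points are genes and bars medians. The mitochondrial median is -0.19 at 1 h and 0.01 at 4 h, and the cytosolic or dual median is -0.06 at 1 h and -0.20 at 4 h.

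For 12 amino acids the set holds both a cytosolic and a mitochondrial enzyme, which makes 13 gene pairs since FRS1 and FRS2 share MSF1. At 1 h the cytosolic gene had the higher change in 11 of 13 pairs, with a median difference of 0.15, and at 4 h it had the lower change in 10 of 13, with a median of -0.13. The largest gap at 4 h was for leucine, with CDC60 at -0.19 and NAM2 at 0.26, followed by isoleucine, with ILS1 at -0.40 and ISM1 at 0.04. The tryptophan pair, WRS1 and MSW1, counts among the 10 only by its later decimals, with both genes at 0.05. For methionine, MES1 at 0.11 and MSM1 at -0.19 ran against the majority, as did lysine, with KRS1 at 0.16 and MSK1 at -0.09, and FRS2 against MSF1, at 0.30 and 0.04. Pairs share arrays, so these counts are a description.

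Class I and class II genes overlapped widely in their changes. At 4 h the 8 class I genes of the cytosolic or dual set had a median of -0.13 and the 11 class II genes -0.20. The range was -0.43 (VAS1) to 0.11 (MES1) in class I and -0.54 (GRS1) to 0.30 (FRS2) in class II. Both genes called against time zero, GRS1 and THS1, are of class II, as is SES1, while TYS1 is of class I.

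Genes that work beside the synthetases were counted in the same fit. Whether calls on single genes of these lists held under the alternative fits was not tested. When the compared groups alone were fitted, genes called higher at 1 h went from 189 of all genes to 24. Calls over all genes at 4 h against time zero fell there too. Over all genes, an unadjusted p under 0.05 was held by 27.5% at 1 h, 12.3% at 2 h and 19.8% at 4 h, beside which the counts of these lists stand. The set leaves out a few charging genes that carry systematic names or act after charging. Of 6 of these that were measured, 0 passed in limma at 1, 2 or 4 h against time zero, and 1, 0 and 2 had an unadjusted p under 0.05. The cytosolic arginyl enzyme YDR341C and the cytosolic prolyl enzyme YHR020W stood at -0.46 (adjusted p = 0.107) and -0.38 (adjusted p = 0.0941) at 4 h, within the range of the 20 cytosolic or dual genes. YHR020W read 11.91 and 11.92 before treatment, 12.05 and 12.16 after 1 h, 12.10 and 12.03 after 2 h, and 11.53 and 11.54 after 4 h. It was above the controls at 1 h and 2 h and below them at 4 h, and fell by 0.57 from 1 h to 4 h (SE 0.10, adjusted p = 0.0221). PET112, a subunit of the mitochondrial amidotransferase that turns glutamate on glutamine tRNA into glutamine, stood at -0.48 at 1 h (SE 0.10, adjusted p = 0.0534).

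Of 6 genes of general amino acid control, 0 passed in limma at any time against time zero, and 1 at 1 h and 0 at 2 h and 4 h had an unadjusted p under 0.05. GCN4 read 13.99 and 14.05 before treatment, 14.02 and 14.21 after 1 h, 14.21 and 14.17 after 2 h, and 14.17 and 14.12 after 4 h, with a change of 0.12 at 4 h (adjusted p = 0.574). These are transcript levels, and Gcn4 is mainly controlled in translation. GCN2, the sensor kinase, stood at 0.01 (adjusted p = 0.981).

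Of 7 genes of tRNA export and turnover, 0 passed in limma against time zero, and 2, 1 and 1 had an unadjusted p under 0.05 at 1, 2 and 4 h. Of 19 genes of tRNA end processing, splicing and ligation, 1 fell at 4 h and 0 rose: SEN34, a subunit of the splicing endonuclease, by 0.77 (SE 0.12, adjusted p = 0.0272), from 8.80 and 8.59 to 7.96 and 7.89. Of 49 tRNA modification genes, 2 rose at 1 h, where 3.47% of all genes were higher, and 1 fell at 4 h. The methyltransferase subunit genes TRM11, by 0.67 (SE 0.11, adjusted p = 0.0365), and TRM8, by 0.40 (SE 0.08, adjusted p = 0.0421), were the rises. The fall was of NCL1, a tRNA cytosine methyltransferase gene, by 0.80 (SE 0.10, adjusted p = 0.0165), from 10.97 and 11.09 in the controls through 11.42 and 11.33 at 1 h to 10.28 and 10.18 at 4 h. Before adjustment, 1, 0 and 4 of the 19 processing genes had a p under 0.05 at 1, 2 and 4 h. Of the 49 modification genes 14, 9 and 13 did, where 27.5%, 12.3% and 19.8% of all genes did. After adjustment, 1 processing gene of 19 and 1 modification gene of 49 were thus lower at 4 h, beside 3.73% of all genes. From 1 h to 4 h more passed: 2 of 19 processing genes were lower, and 7 of 49 modification genes lower and 1 higher, where 8.53% of all genes were lower and 3.19% higher. From 1 h to 2 h, NCL1 and TRM11 changed by -0.65 and -0.99 (adjusted p = 0.0294 for both), where 2.51% of all genes were lower. The lists of general amino acid control and of tRNA export and turnover had 0 calls in limma from 1 h to 2 h or to 4 h. Of the former 0 of 6 had an unadjusted p under 0.05 in either, and of the latter 3 of 7 and 5 of 7, where 22.3% and 33.4% of all genes did.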

How the data were processed

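The deposited values are log2 signals made by the authors with RMA, per the submitters' processing notes, which corrects background, brings arrays to a shared distribution and summarises each probe set; the log base was judged from the range. The deposited arrays still differed, with medians from 11.03 (1 h replicate 2) to 11.11 (control replicate 1). Their 5th percentiles ran from 7.91 (control replicate 1) to 8.40 (1 h replicate 2). RMA hides a shift of all mRNA at once. Per the labels' design text, the 2 arrays at 4 h are technical and were averaged. Of 5814 probe sets 5498 had 1 gene name in the platform's annotation, with 12 symbols updated, 0 several and 316 none; the probe set with the highest mean was kept for 47 genes with several, which left 5449.

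Limma 3.58.1 (R 4.3.3; lmFit, eBayes) was fitted over 7 RNA samples in 4 groups (3 residual degrees of freedom), with Benjamini-Hochberg adjustment over all genes; the single 4 h sample was assumed to vary like the others. The labels do not tie replicates to separate cultures, and p-values then reflect only how far these samples differ, which may be technical. Alternatives changed the prior, the filter on dim genes, the scaling, the probe set, the 4 h array, the samples in the fit, and left out each replicate. The script was tested on simulated data. All 34 members are named, and so are the MATa, MATalpha and deleted genes used to check the strain. Other genes come only from 5 lists: each that passed against time zero, up to 4 a list, and GCN4 and GCN2. YDR341C, YHR020W and PET112 were added after their values were seen. CRS1 and IKI3 were not analysed here. The members and lists were chosen with earlier results of these data known. The number of arrays limits the precision.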

Additional observations from a re-analysis of the deposited data

How the results depend on the processing

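At 4 h against time zero 2 members were called, and 1 with 4 h array 1 alone. After quantile normalisation, after median centring or when fitting the compared groups alone, 0 were called. Over all genes, 40 were higher and 203 lower in the main fit, and 37 and 197 with 4 h array 1 alone. They were 30 and 134 after quantile normalisation, 31 and 137 after median centring, and 0 and 1 when fitting the compared groups alone. Leaving out a control or a 2 h replicate lost both member calls, and calls over all genes fell too. Both were kept when a 1 h replicate was left out. Between 1 h and 4 h 4 were called, and 2 with 4 h array 2 alone, 0 when fitting the compared groups alone, and between 0 and 10 when a replicate was left out; the 10, 5 higher and 5 lower, came without 1 h replicate 1, where 649 of all genes were higher and 678 lower, and the 0 without either 2 h replicate. A trended prior or the filter on dim genes gave 6 there, 1 higher and 5 lower. Calls over all genes from 1 h to 4 h were 174 higher and 465 lower in the main fit. They were 14 and 241 when fitting the compared groups alone, 334 and 599 with a trended prior, and 287 and 354 with the filter. At 1 h, leaving out replicates gave between 0 and 6 calls, and between 1 h and 2 h between 0 and 3, the highest in both without 1 h replicate 1. Between 2 h and 4 h, 5 members (GRS1, ILS1, SES1, THS1 and VAS1) were lower when fitting the compared groups alone, against 0, while calls over all genes were 456 lower and 191 higher in place of 42 and 5. The F test called 2 with a trended prior (GRS1 and THS1), 1 over genes above the 25th percentile (GRS1) and between 0 and 4 when a replicate was left out, against 0. No call on a member changed sign under these alternatives. The replicate numbers were not shown to pair samples: their differences correlated by 0.096 between control and 1 h, 0.19 between control and 2 h and 0.033 between 1 h and 2 h over genes. With the number as a replicate block, 0 members were called at 1 h, at 2 h or between them, as without it, while calls over all genes at 1 h were 340 higher and 154 lower in place of 189 and 83. The averaged 4 h sample carries no number, so it had no such fit.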
